A study of Homo sapiens with 6 samples.

Results

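The genes described here encode growth factors, axon guidance cues, their receptors and the receptor-type tyrosine phosphatases that were listed as differing between T24, a human cell line from bladder carcinoma, and its chemoresistant derivative T24DDP. Within the deposited table they were taken by symbol. The table itself was selected by the authors on the values of these libraries. A protein-coding gene was taken if its symbol began with EPHA, EPHB, EFNA, EFNB, SEMA, PLXN, NRP, NTN, UNC5, SLIT, ROBO, FGF, PDGF, VEGF, IGF, ERBB, NRG, EGF, NTRK, DDR or PTPR, began with ROR and a digit, or was KIT, MET, AXL, HBEGF, AREG or EREG. This gave 40 genes of the 1924 protein-coding genes and the 2462 genes of all kinds in the deposited table. No PLXN, VEGF, ERBB, NRG or NTRK gene, and none of the 6 single symbols, was in the table.

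Bulk RNA was sequenced from 3 libraries of T24 and 3 of T24DDP, both labelled as bladder and as spontaneously immortalized. T24DDP was a surviving population of T24 after repeated rounds of drug at rising concentration, each followed by regrowth. The series names a single chemotherapeutic drug, whereas the paper's methods, in which the derivative is called T24-R, name gemcitabine together with cisplatin, given intermittently with recovery in drug-free medium. T24DDP is therefore 1 derivative of 1 line, and no label states whether it is a clone, whether the 3 libraries were separate cultures, or whether drug was present at harvest. The paper's general statement on statistics describes independent repeats and counts n in biological replicates, without naming the sequencing. If the libraries were not separate cultures, the p-values measure technical spread only.

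Eph receptors are receptor tyrosine kinases that bind membrane-held ephrins on neighbouring cells, and signals run into both cells. Semaphorins act through plexins and neuropilins, netrins through DCC and UNC5 receptors, and SLIT proteins through ROBO receptors. These cues were named for steering growing axons, and they also act on adhesion and migration of epithelial and tumour cells. The fibroblast (FGF), platelet-derived (PDGF) and insulin-like (IGF) growth factors bind receptor tyrosine kinases that drive growth and survival, and FGFR3 is often altered in urothelial carcinoma.

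The table held only genes that had passed the authors' own test on these 6 libraries, so that calls within it describe the genes and are not evidence that they changed. A gene outside the table is given as not listed. Levels are scaled counts, that is, reads per gene after division by a size factor for the library. In bulk RNA, more cells that express a gene and more RNA per cell cannot be told apart. The size factors ranged from 0.939 to 1.08, and each library held 1170731 to 1411926 reads on the listed genes, of which 1.07% to 1.36% fell on the 40 genes. Replicate 3 of T24DDP stood apart from the other two, with a chi-square per gene of 63.7 and 63.8 on average against them, compared with 1.83 between replicates 1 and 2 and 3.14 to 7.17 among T24 libraries. The medians per gene lay closer, at 3.52 and 3.46, against 0.73 between replicates 1 and 2 and 0.88 to 1.34 among T24 libraries. The closest pair still differed by more than sampling noise, and all 6 libraries were counted separately. The absolute log2 deviation of replicate 3 from the mean of replicates 1 and 2 had a median of 0.35 over the 40 genes and 0.37 over all listed genes.

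Of the 40 genes, 33 were higher and 7 lower in T24DDP by limma (adjusted p under 0.05 and a log2 fold change beyond 1 in either direction). All 40 were called, and of all listed genes 98.3% were. edgeR and DESeq2 on the recovered reads also called all 40, beside 99.9% and 100% (2461 genes) of the listed genes. The share called higher was 69.2% of all listed genes and the share called lower 29.2%. Of the called genes, 82.5% were higher among the 40 and 70.3% in the whole table. The median log2 fold change was 1.56 over the 40 genes, beside 1.41 over all listed genes and 1.37 over the listed protein-coding genes. The value for the 40 remained 1.56, and that for all listed genes was 1.35, when genes without a read in a group were set to the bound of 3 reads per library. The groups did not overlap for any of the 40 genes, which was so for 99.1% of listed genes. The exact two-sided permutation test of 3 libraries against 3 gave p = 0.1 for each gene, the smallest this design allows.

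TMM factors (trimmed mean of M values) were computed on the listed genes as another scaling. They centre the listed genes themselves, and the median log2 fold change of all listed genes moved by -1.32. With them 11 of the 40 genes were called higher and 7 lower. The background under TMM was 23.8% called higher and 29.3% called lower. A positive log2 fold change remained in 27 of the 40 genes, and in 1309 of the 2462 listed genes. DDR1, EGFL7, SEMA3A, SEMA4G, SEMA6B and SLIT2, whose values were 1.12 to 1.34 with the deposited scaling, turned slightly negative, so that the sign under TMM mainly follows the size of the deposited value. All 7 lower genes (FGF5, IGFBP1, IGFBP3, IGFN1, NTNG1, PDGFD and SEMA7A) stayed lower under either scaling. TMM moved values downward, so that a lower gene could not turn, and this is no test of these genes. Of all listed genes, 721 were negative with the deposited scaling and 721 were called lower with TMM. A direction below is that of the deposited scaling unless TMM is named.

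**Figure D1:**
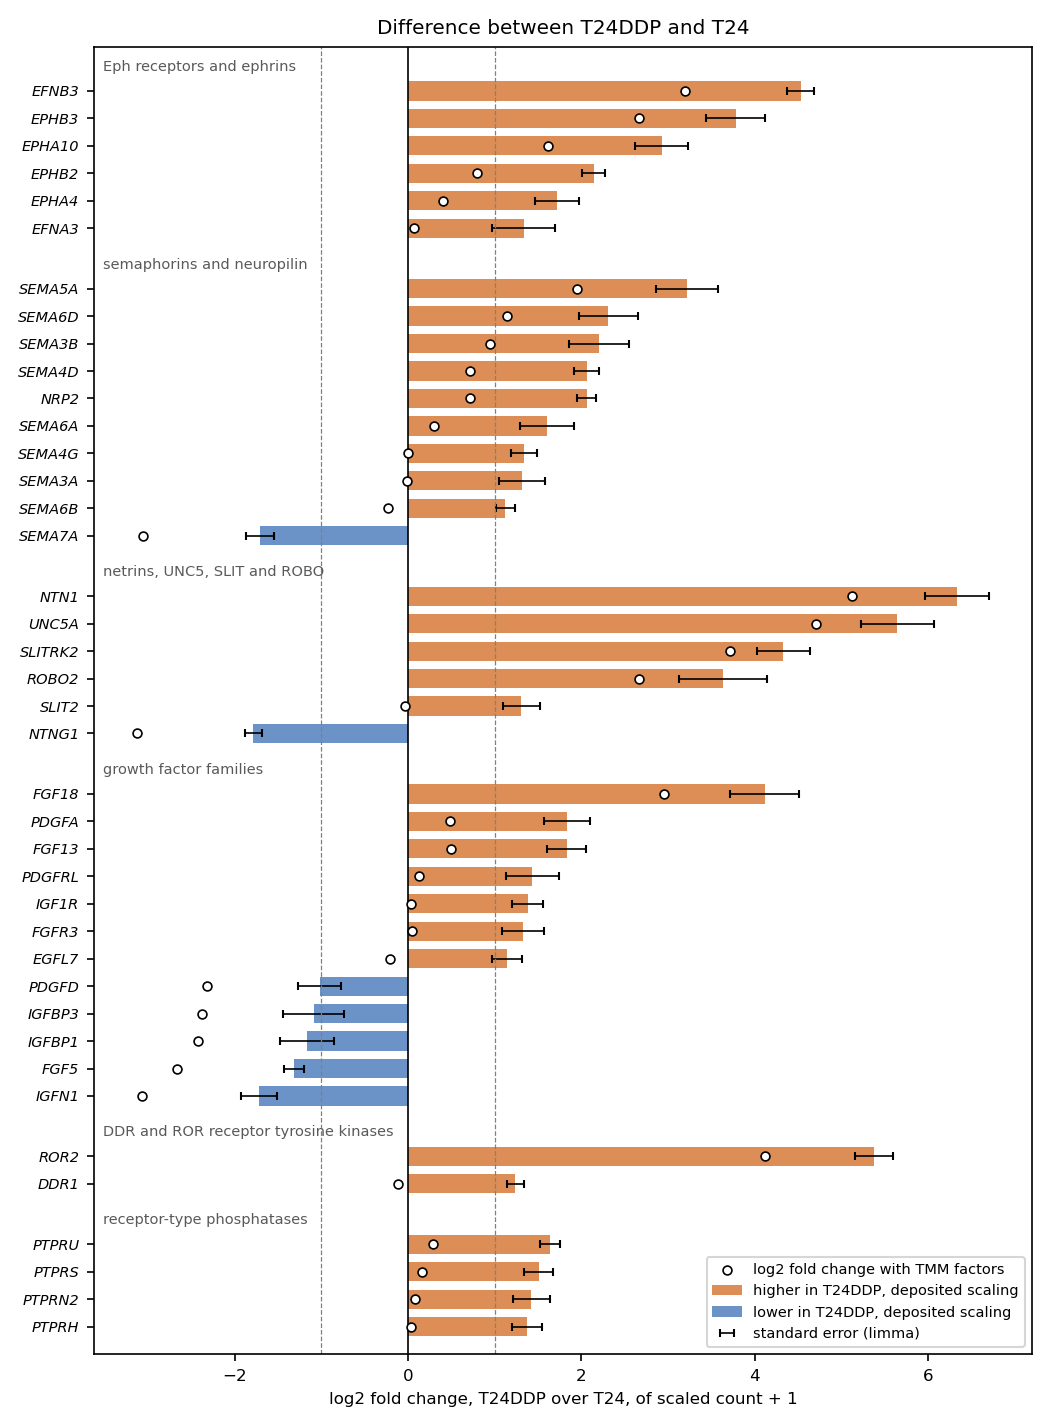
Log2 fold change of T24DDP over T24 for each of the 40 genes (horizontal axis, on scaled count + 1), grouped by family, with bars for the deposited scaling, limma standard errors as whiskers and open circles for TMM factors; dashed lines mark a log2 fold change of 1 in either direction. Bars of 33 genes point to T24DDP and 7 to T24, and 27 circles lie above 0.

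Read by role, all 15 receptors were called higher in T24DDP, beside 69.2% of all listed genes. Of these receptors, EPHB3, ROBO2 and UNC5A had at most 3 reads in any T24 library and could enter the table only as higher. With TMM factors 5 of the 15 were called, EPHB3, ROBO2 and UNC5A among them, beside 23.8% of all listed genes called higher. Under TMM 14 were positive (all but DDR1), several of them near 0. Of the 18 genes classed as ligands, NTNG1 among them, 14 were higher and 4 lower, and with TMM 5 were called higher and 10 were positive. The 7 genes classed as neither were 4 higher and 3 lower, and with TMM 1 was called higher and 3 were positive. The sum of scaled counts over the 40 genes was similar in the groups, at 14281 to 15820 in T24 libraries and 14922 to 15893 in T24DDP libraries. The 7 lower genes held 76.9% of it in T24 and 24.6% in T24DDP. They were grouped by their direction in these same libraries, so that a fall of their share follows from that choice. Much of that share was IGFN1, with a mean of 7093 in T24 and 2214 in T24DDP. The sums were not scaled by gene length.

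**Figure D2:**
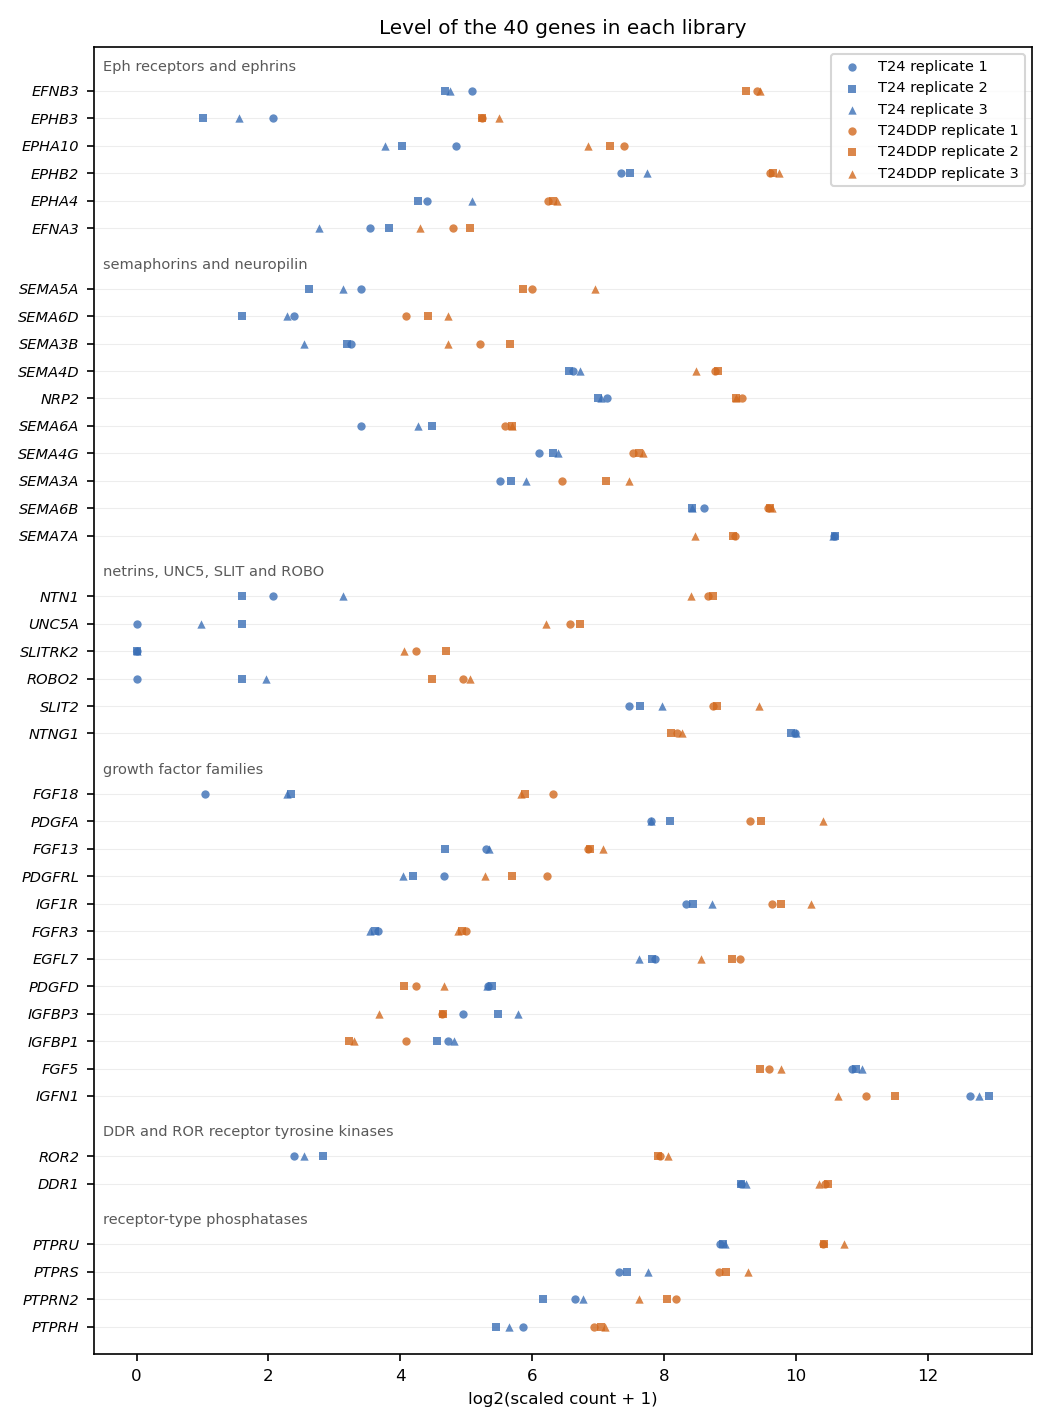
Level of the 40 genes in each of the 6 libraries as log2(scaled count + 1) (horizontal axis), by family, with blue symbols for T24, orange for T24DDP and a symbol shape per replicate. The groups do not overlap for any gene, and SLITRK2 has no read in the 3 T24 libraries.

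In the main limma fit the largest log2 fold changes in each direction were those of NTN1, UNC5A and ROR2, which rose, and of NTNG1, IGFN1 and SEMA7A, which fell. The falls were smaller in size than several other rises. The upward order depends on the pseudocount of 1, since SLITRK2 had no read in T24. SLITRK2 was the largest with edgeR (7.31, against 6.44 for NTN1) and with DESeq2 (6.71, against 6.49 for UNC5A). The sequence upstream of the start is shown for some of the 6 genes named for the main fit. These have an entry in the RefSeq promoter table (GRCh38.p14) and are ligands or receptors, so that promoters at both ends of the range can be compared. Each runs 5′ to 3′ on the strand of the gene and ends before the first transcribed base, and capitals mark GC boxes (GGGCGG on either strand). The stretches are UNC5A at chr5:176810309-176810476 on the plus strand, ROR2 at chr9:91950229-91950478 on the minus strand, SEMA7A at chr15:74433959-74434208 on the minus strand and NTNG1 at chr1:107139838-107140006 on the plus strand.
UNC5A: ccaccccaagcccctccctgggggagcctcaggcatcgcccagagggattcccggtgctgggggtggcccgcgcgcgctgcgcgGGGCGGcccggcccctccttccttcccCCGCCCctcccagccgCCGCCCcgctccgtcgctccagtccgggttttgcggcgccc
ROR2: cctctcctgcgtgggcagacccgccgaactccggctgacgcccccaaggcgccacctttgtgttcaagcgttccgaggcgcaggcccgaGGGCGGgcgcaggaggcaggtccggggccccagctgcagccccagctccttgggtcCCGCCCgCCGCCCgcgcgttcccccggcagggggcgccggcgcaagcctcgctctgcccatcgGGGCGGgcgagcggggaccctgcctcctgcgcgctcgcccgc
SEMA7A: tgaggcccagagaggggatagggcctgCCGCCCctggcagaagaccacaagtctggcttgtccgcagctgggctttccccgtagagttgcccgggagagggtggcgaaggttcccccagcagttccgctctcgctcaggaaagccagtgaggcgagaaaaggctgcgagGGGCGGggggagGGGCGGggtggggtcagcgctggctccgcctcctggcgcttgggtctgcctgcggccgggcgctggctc
NTNG1: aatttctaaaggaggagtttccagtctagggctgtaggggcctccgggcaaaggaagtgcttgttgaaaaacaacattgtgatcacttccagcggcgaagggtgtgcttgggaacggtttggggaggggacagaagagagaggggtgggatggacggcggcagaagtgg
The printed stretches of UNC5A and ROR2 hold 3 and 4 GC boxes with 19 and 32 CpG sites. That of SEMA7A, a lower gene, also holds 3 GC boxes and has 17 CpG sites, while that of NTNG1 has none of these boxes and 6 CpG sites. These counts do not compare directly, because the stretches have 168 bases for UNC5A, 169 for NTNG1 and 250 for ROR2 and SEMA7A. Over 250 bases upstream of the RefSeq start, UNC5A had 4 GC boxes and 36 CpG sites, and NTNG1 had 0 and 10. Of the 40 genes, 31 were matched to the promoter table. A GC box stood within the 250 bases upstream of the most upstream start in 23 of them (74.2%). The share was 63.7% of the 1442 listed protein-coding genes in the promoter table. It was 42.2% of 27324 promoters of that table, taken as the most upstream start of each gene. A TATA box (TATAAA on either strand) was found in 1 of the 31 (3.23%), beside 6.94% of the 1442 genes and 11.2% of the 27324 promoters. The median GC content was 70%, 64.4% and 57.6% in the same order.

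Among netrins, UNC5, SLIT and ROBO genes, 5 were higher and 1 lower, and with TMM 4 were called higher. The shares called higher among all listed genes were 69.2%, and 23.8% with TMM. UNC5A, ROBO2 and SLITRK2 had at most 3 reads in any T24 library, so that they could be listed only as higher. NTN1 (ENSG00000065320, chromosome 17, 9021542 to 9244000, GRCh38), a secreted netrin, had scaled counts of 3.19, 2.04 and 7.74 in T24 and 408, 426 and 340 in T24DDP. All T24DDP libraries were far above all T24 libraries, with a log2 fold change of 6.34 ± 0.37 (SE; limma adjusted p = 1.73e-06), and 5.12 with TMM. NTN1 ranked 13 among all 2462 listed genes by log2 fold change. From 13 reads in T24 and 1217 in T24DDP, the ratio was 89.0 with a 95% counting interval of 51.8 to 167.6. UNC5A (ENSG00000113763, chromosome 5, 176810477 to 176880898), a receptor for netrins, had 0, 2.04 and 0.968 in T24 and 94.8, 105 and 73.4 in T24DDP. Its T24 libraries together held 3 reads against 284, a ratio of 90.0 with an interval of 30.5 to 438.8, which is wide because so few T24 reads were seen. Both the ligand and this receptor were thus near the floor of detection in T24, and the other netrin receptor named above, DCC, was not listed.

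NTNG1 (ENSG00000162631, chromosome 1, 107140007 to 107483458) moved the other way. It encodes netrin-G1, a membrane-anchored relative that is not a ligand of DCC or UNC5 receptors and is classed here as a ligand because it binds other membrane proteins, the netrin-G ligands. Its scaled counts were 1019, 977 and 1022 in T24 and 291, 275 and 307 in T24DDP. This was the lowest log2 fold change of the 40 genes, at -1.79 ± 0.10 (limma adjusted p = 1.71e-06), a level 3.45-fold lower. SLIT2, a secreted ligand of ROBO receptors, had 177, 198 and 251 in T24 and 430, 448 and 698 in T24DDP, with replicate 3 the highest. Its log2 fold change of 1.31 ± 0.21 became -0.0405 with TMM. ROBO2, a receptor for SLIT proteins, ranged from 0 to 2.90 in T24 and from 21.2 to 32.3 in T24DDP, a ratio of 16.3 (interval 6.74 to 51.6) from 5 and 86 reads. SLITRK2, a synaptic adhesion protein that shares only part of its structure with SLIT proteins, had no read in T24 and 15.7 to 24.9 in T24DDP, at least 6.39-fold higher against 3 reads per library.

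The 6 Eph receptors and ephrins were all higher, beside 69.2% of all listed genes called higher. All 6 remained positive with TMM, beside 1309 of the 2462 listed genes. With TMM 3 of them were called (EFNB3, EPHA10 and EPHB3), beside 23.8% of all listed genes called higher. EFNB3, a transmembrane ephrin, had 33.0, 24.5 and 26.1 in T24 and 681, 604 and 703 in T24DDP. It was 23.8-fold higher, with a log2 fold change of 4.53 ± 0.16 (limma adjusted p = 1.45e-07) and 3.20 with TMM. Per kilobase of gene length, EFNB3 went from 8.65 to 206, from rank 21 to rank 3 of the 40 genes. EPHB2, a kinase receptor for B-type ephrins, had 163, 179 and 213 in T24 and 781, 804 and 861 in T24DDP. The 4.41-fold difference (log2 fold change 2.14 ± 0.13) fell to 0.79 on the log2 scale with TMM, under the threshold of 1. EPHB3, a close relative of EPHB2, ranged from 1.02 to 3.19 in T24 and from 36.9 to 44.1 in T24DDP, a ratio of 19.3 (interval 8.63 to 53.7) from 6 and 122 reads. The listed B-type ephrin and both listed EphB receptors were thus higher. EPHB3, with at most 3 reads in any T24 library, could be listed only as higher.

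On the A side, EPHA10, which lacks kinase activity, had 27.7, 15.3 and 12.6 in T24 and 167, 144 and 115 in T24DDP. Every T24DDP library was above the T24 range, with a log2 fold change of 2.93 ± 0.30 and 1.61 with TMM. EPHA4, a kinase receptor that binds ephrins of both classes, ranged from 18.4 to 32.9 in T24 and from 74.8 to 82.3 in T24DDP, with a log2 fold change of 1.72 ± 0.26. EFNA3, a lipid-anchored ephrin, ranged from 5.81 to 13.3 and from 18.6 to 32.3. Its count is uncertain, because 43.9% of its exonic bases lie within the readthrough gene EFNA4-EFNA3 on the same strand.

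**Figure D3:**
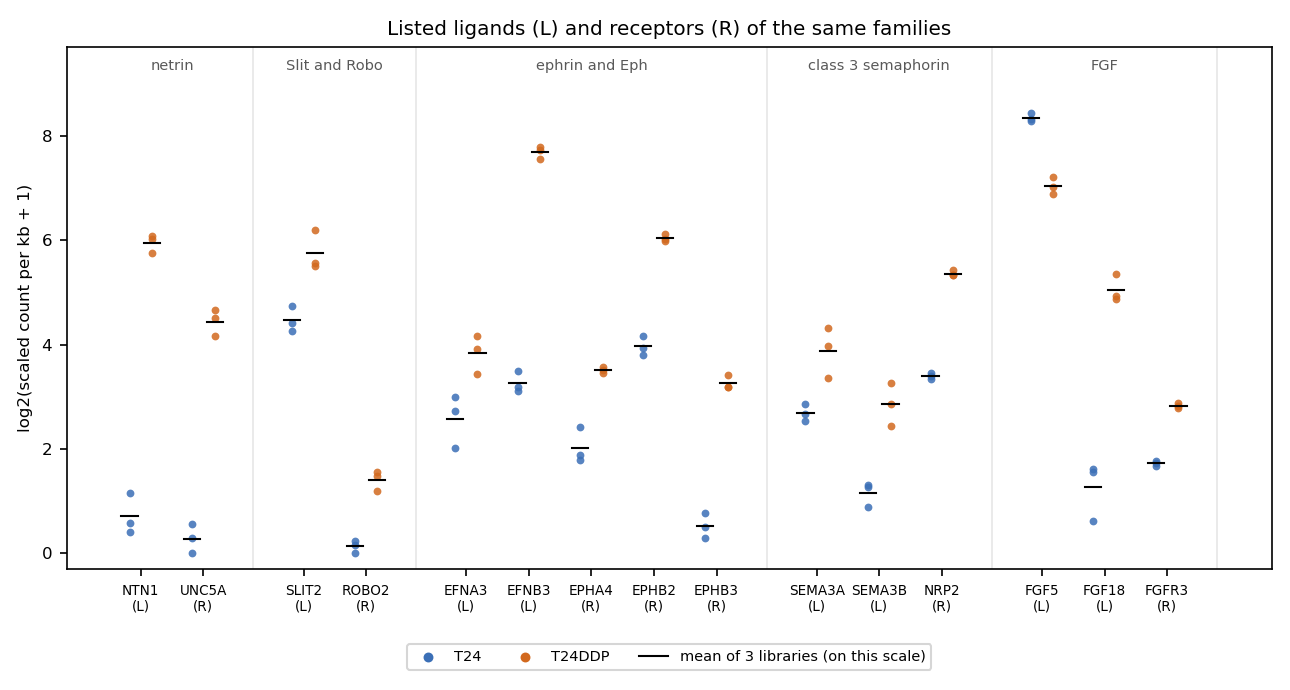
Length-scaled level, log2(scaled count per kb + 1), of listed ligands (L) and receptors (R) of the netrin, Slit and Robo, ephrin and Eph, class 3 semaphorin and FGF families, with a point per library (blue T24, orange T24DDP) and a black line at the mean of 3 libraries. NTN1 and UNC5A lie near 0 in T24 and rise in T24DDP, and FGF5 is the only gene plotted that falls with the deposited scaling (SLIT2 and SEMA3A also turn slightly negative with TMM). The genes plotted are a choice: NTNG1, classed as a ligand and lower in T24DDP, and the receptor EPHA10, higher in T24DDP, are not drawn.

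The semaphorins and NRP2 numbered 10, of which 9 were higher and 1 lower, beside 69.2% of all listed genes called higher. With TMM 6 were positive, and only SEMA5A and SEMA6D were called higher, beside 23.8% of all listed genes. NRP2, a co-receptor of class 3 semaphorins, had 139, 127 and 132 in T24 and 581, 544 and 542 in T24DDP. The replicates were tight, and the log2 fold change was 2.06 ± 0.11 (limma adjusted p = 1.43e-06), and 0.71 with TMM. SEMA3A, a secreted class 3 semaphorin, had 44.7, 50.1 and 59.0 in T24 and 86.8, 138 and 177 in T24DDP. The T24DDP libraries were spread widely, and the log2 fold change of 1.32 ± 0.27 became -0.018 with TMM. SEMA3B, also of class 3, ranged from 4.84 to 8.52 and from 25.5 to 49.9, with a log2 fold change of 2.2 ± 0.34.

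Among membrane-spanning semaphorins, SEMA4D, which binds plexin-B1, had 97.9, 93.0 and 105 in T24 and 438, 450 and 358 in T24DDP. The log2 fold change was 2.06 ± 0.14, and 0.71 with TMM. SEMA6B was well expressed in both groups, with 387, 341 and 344 in T24 and 761, 777 and 798 in T24DDP. Its log2 fold change of 1.12 ± 0.11, the smallest of the 33 higher genes, became -0.23 with TMM. SEMA4G had 68.1, 78.7 and 83.2 in T24 and 184, 197 and 204 in T24DDP, and its log2 fold change of 1.34 ± 0.15 became -0.0052. Of its exonic bases, 28.0% overlap MRPL43 on the other strand, and it is not stated whether counting used the strand. SEMA5A ranged from 5.11 to 9.58 in T24 and from 57.3 to 122 in T24DDP (log2 fold change 3.22 ± 0.36), the top value being replicate 3. SEMA6A (9.58 to 21.5 against 46.9 to 50.9) and SEMA6D (2.04 to 4.26 against 16 to 25.5) were lowly expressed and higher in T24DDP.

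SEMA7A (ENSG00000138623, chromosome 15, 74409289 to 74433958), the membrane-anchored semaphorin that signals through integrins and plexin-C1, was the exception. It had 1529, 1547 and 1517 in T24 and 538, 530 and 355 in T24DDP. The T24 libraries were nearly equal, and every T24DDP library was lower, with a log2 fold change of -1.71 ± 0.16 (limma adjusted p = 1.87e-05). Per kilobase, SEMA7A was the second most abundant of the 40 genes in T24 at 403, after IGFN1 at 585, and fell to 125 in T24DDP.

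The 12 genes of the growth factor families were divided, with 7 higher and 5 lower, beside 69.2% of all listed genes called higher. With TMM 6 were positive and 1, FGF18, was called higher. Ligands went both ways. FGF5, a secreted FGF, had 1851, 1922 and 2063 in T24 and 772, 705 and 878 in T24DDP, a log2 fold change of -1.31 ± 0.12. FGF18, also secreted, ranged from 1.06 to 4.09 in T24 and from 55.8 to 78.8 in T24DDP, a ratio of 21.0 (interval 10.8 to 46.6) from 9 and 199 reads. Per kilobase, FGF18 at 32.4 remained below FGF5 at 131 in T24DDP, so that FGF5 was the more abundant of the 2 in both groups. FGFR3, an FGF receptor, was low in both groups (10.6 to 11.7 against 28.4 to 30.9). The log2 fold change of 1.33 ± 0.24 shrank to 0.05 with TMM. FGF13, an intracellular relative that does not act as a secreted ligand, had 38.3, 24.5 and 39.7 in T24 and 114, 117 and 134 in T24DDP.

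PDGFA, a ligand of PDGF receptors, had 221, 272 and 224 in T24 and 633, 708 and 1369 in T24DDP. Replicate 3 was far above the other two T24DDP libraries, and the log2 fold change of 1.83 ± 0.27 was 1.49 without it. PDGFD, another ligand, was lower, at 38.7 to 40.9 in T24 and 15.7 to 24.5 in T24DDP. Its log2 fold change of -1.02 ± 0.25 lay at the threshold and was -0.98 without T24DDP replicate 1, -0.89 without T24DDP replicate 2 and -0.998 without T24 replicate 2, where its call was lost. PDGFRL, a receptor-like protein without a kinase, ranged from 15.5 to 24.5 and from 38.2 to 73.8, and 11.4% of its exonic bases overlap MTUS1 on the other strand. The PDGF receptors themselves were not listed.

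IGF1R, the receptor for insulin-like growth factors, had 320, 345 and 425 in T24 and 793, 877 and 1198 in T24DDP. The log2 fold change was 1.38 ± 0.18, and 0.03 with TMM. The binding proteins IGFBP1 and IGFBP3, which hold these factors in the extracellular space, were low and fell, from 22.5 to 27.1 down to 8.31 to 16 for IGFBP1 and from 29.8 to 54.2 down to 11.8 to 24 for IGFBP3. The log2 fold change of IGFBP3, -1.09 ± 0.35, was -0.76 without T24DDP replicate 3 and -0.90 without T24 replicate 3, and was then not called. These neighbours lie 18576 bases apart on chromosome 7 with no listed gene between them.

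IGFN1 and EGFL7 share a family prefix without being ligands or receptors of that family. IGFN1 (ENSG00000163395, chromosome 1, 201190825 to 201228952), an immunoglobulin-like and fibronectin type III domain protein of muscle, was the most abundant of the 40 genes per kilobase in T24, with scaled counts of 6375, 7841 and 7064, and had 2142, 2908 and 1592 in T24DDP. All 3 were lower, with a log2 fold change of -1.72 ± 0.21. EGFL7, a secreted protein with EGF-like domains, had 233, 225 and 196 in T24 and 568, 523 and 376 in T24DDP. Its log2 fold change of 1.15 ± 0.17 became -0.20 with TMM.

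ROR2 (ENSG00000169071, chromosome 9, 91563091 to 91950162), a receptor for WNT5A, had 4.26, 6.13 and 4.84 in T24 and 243, 240 and 265 in T24DDP. The replicates were tight in both groups, and the level was 49.2-fold higher (log2 fold change 5.38 ± 0.22, limma adjusted p = 3.32e-07, and 4.12 with TMM). From 15 and 775 reads the counting interval of the ratio was 29.6 to 88.2. DDR1, a receptor tyrosine kinase for collagen, was abundant in both groups, with 574, 577 and 604 in T24 and 1391, 1434 and 1310 in T24DDP. Its log2 fold change was 1.23 ± 0.10, and it became -0.12 with TMM.

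The 4 genes of the receptor-type tyrosine phosphatase family were all higher, beside 69.2% of all listed genes called higher. They were positive with TMM but none was called there, beside 23.8% of all listed genes called higher. PTPRU had 462, 476 and 484 in T24 and 1368, 1380 and 1702 in T24DDP (log2 fold change 1.64 ± 0.12). With a mean of 222 ± 28.3 (SD, n = 3) per kilobase it was the top gene of the 40 in T24DDP, followed by PDGFA at 218 ± 97.6 and EFNB3 at 206 ± 16.1. These neighbours in the order do not differ beyond their spread. PTPRS, a receptor for proteoglycans, had 159, 173 and 216 in T24 and 456, 490 and 619 in T24DDP (log2 fold change 1.51 ± 0.17). PTPRN2, found in secretory granules, had 99.0, 70.5 and 108 in T24 and 288, 264 and 196 in T24DDP (log2 fold change 1.42 ± 0.21). PTPRH had 57.5, 42.9 and 49.4 in T24 and 122, 131 and 136 in T24DDP (log2 fold change 1.37 ± 0.17). The differences of these 4 genes lay close together, with TMM values from 0.03 to 0.29.

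**Figure D4:**
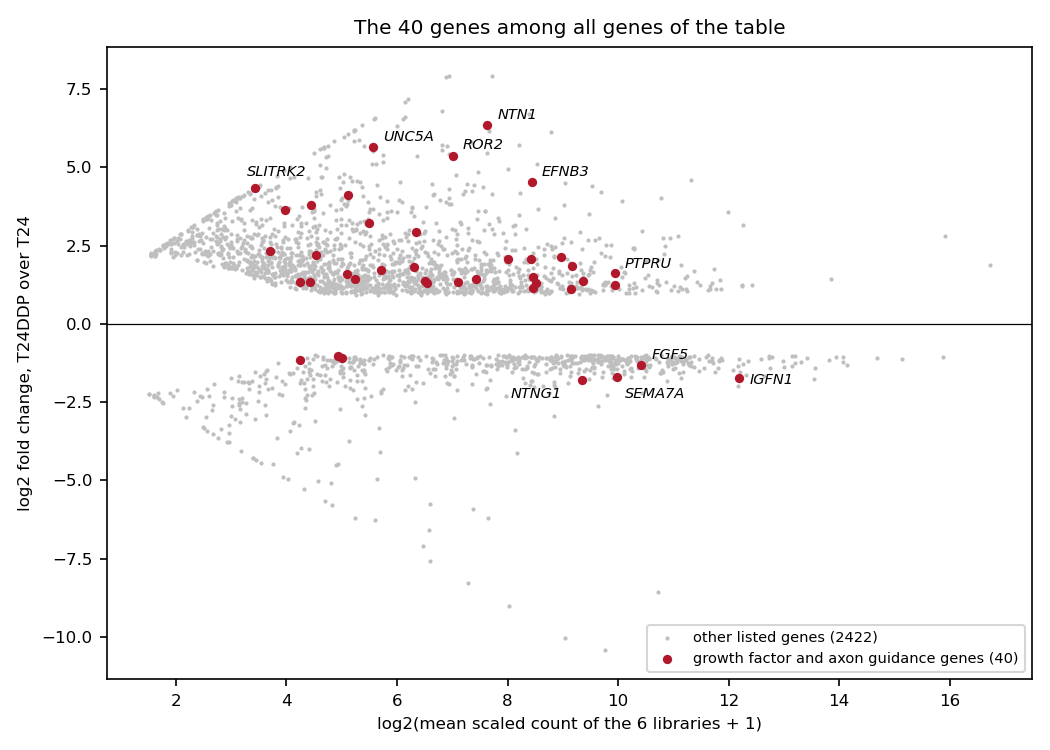
Log2 fold change of T24DDP over T24 (vertical axis) against log2(mean scaled count of 6 libraries + 1) for all 2462 listed genes, with the 40 genes in red and the others in grey. The band near 0 is empty because of how the table was selected, and NTN1, UNC5A and ROR2 lie among the highest red points.

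The 40 genes lay on 15 chromosomes. On chromosome 3 all 3 (SEMA3B, EPHB3 and ROBO2) were higher, while 55 listed genes there were called higher and 106 lower. On chromosome X both FGF13 and SLITRK2 were higher, with 38 listed genes called higher and 115 lower. All 5 remained positive with TMM. Chromosomes 3 and X are given because most listed genes there were lower. In T24, EPHB3, ROBO2 and SLITRK2 had at most 3 reads in any library, so that they could enter the table only as higher.

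Of 154 further genes of these pathways, set out in 5 lists, 19 were in the table, 15 higher and 4 lower. The share called higher among all listed genes was 69.2%. With TMM 10 of the 19 were positive, 4 were called higher and 4 lower. Of 25 feedback genes of receptor signalling, 2 were listed. Both were higher, SPRY1 with a log2 fold change of 1.67 and LRIG1, a negative regulator of ErbB receptors, at 104.7 ± 26.1 in T24 and 255.6 ± 16.3 in T24DDP (log2 fold change 1.31, and -0.039 with TMM). Of 39 adaptors, 4 were listed. DOK7 was higher (99.6 ± 11.8 against 239.5 ± 61.9, -0.12 on the log2 scale with TMM), and GRB14, PIK3R3 and SHC3 (340.3 ± 28.1 against 161.6 ± 7.41) were lower. The shared effector genes of these receptors that were on the lists, such as GRB2, SHC1, SOS1 and PTPN11, were not listed.

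Of 23 other receptor tyrosine kinases, 2 were listed and higher. INSR, the insulin receptor and nearest relative of IGF1R, had 7.45, 11.2 and 12.6 in T24 and 156.7, 191.2 and 348.6 in T24DDP, and replicate 3 was the highest. Its log2 fold change was 4.29 ± 0.33, against 1.38 for IGF1R. STYK1, a kinase-like receptor, had means of 146.3 ± 20.1 and 316.6 ± 39.5, with a log2 fold change of 1.11 (-0.24 with TMM) that was 0.995 without T24 replicate 3 and then not called. Of 30 other ligands and co-receptors, 5 were listed, 4 higher and 1 lower. KITLG, the ligand of KIT, had 1307, 1334 and 1448 in T24 and 192.6, 188.4 and 291.8 in T24DDP, a log2 fold change of -2.63 ± 0.17. TGFA, a ligand of the EGF receptor, had means of 239.9 ± 18.6 and 540.2 ± 46.7 (log2 fold change 1.17, and -0.18 with TMM). PGF, a ligand of the VEGF family, had means of 49.7 ± 14.8 and 164.5 ± 27.1. NGFR, the low-affinity neurotrophin receptor, falls outside the naming rule and is given after its values were seen, with no read in T24 and 116.8, 97.9 and 66.6 in T24DDP, at least 30.7-fold higher. NTF4 had no read in T24 or in T24DDP replicate 3, so that its groups overlapped, and its call was kept only in the fit without T24DDP replicate 3 among the 6 that each left out a library.

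The other axon guidance list had 6 of 37 genes in the table, all higher and 5 of them positive with TMM. Among all listed genes 69.2% were called higher, and 1309 of 2462 were positive with TMM. ABLIM1, an actin-binding protein, had means of 65.7 ± 13.4 and 496.5 ± 180.7 (log2 fold change 2.86). CHN1, a Rac regulator downstream of EphA4, had 227.8 ± 25.6 and 520.8 ± 21.2 (1.2, and -0.15 with TMM). The others were NRCAM, SRGAP3, RND1 and RTN4RL2, with log2 fold changes from 1.36 to 3.59.

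Markers were checked against the bladder label. Of 16 urothelial and epithelial markers 3 were listed, with summed scaled counts of 1392 to 1583 in T24 and 399 to 478 in T24DDP: PPARG and KRT19 were lower and GATA3 was higher. KRT19 had 0 reads in 2 of the 3 T24DDP libraries. Of 10 mesenchymal markers FN1 and COL1A1 were listed, with sums of 13670 to 17491 and 94980 to 131784. Of 5 endothelial markers only PECAM1 was listed, at 0 to 4.26 and 21.0 to 32.3. None of the 5 leukocyte, 6 neural or 6 retinal markers was listed, and a marker outside the table has no value here. The part of these shifts in the differences of the 40 genes was not tested.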

How the data were processed

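RNA of T24 and T24DDP was sequenced in 3 libraries each. Per the methods, the authors aligned reads to GRCh38 with HISAT2, counted them with featureCounts and tested them with DESeq2. The protocol in the labels names retinas, another kit and a mouse build, and the paper's description was followed. The annotation version and strand setting are not given in the sources used here. The signal values the authors deposited are reads per gene after division by a size factor for the library. All values (100%) were whole multiples of that step within a tolerance of 0.001. Columns of the authors' own group means, log2 fold changes and p-values were not used. Their table holds only genes past their thresholds.

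limma 3.58.1 (lmFit, eBayes with trend, R 4.3.3) was run on log2(scaled count + 1) of all 2462 genes without a block, with Benjamini-Hochberg adjustment. A gene was called at an adjusted p under 0.05 and a log2 fold change beyond 1. Count tests were planned for raw counts only, so edgeR 4.0.16 and DESeq2 1.42.0, run on recovered reads, were alternatives. The other alternatives were TMM, no trend, a mean of at least 10, pseudocounts of 0.1 and 10, the replicate block, treat and leaving out each library. The programs were tested on simulated data.

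Values in every library are given where the mean reached 100 in the higher group, and for the 3 largest and 3 smallest log2 fold changes, and other genes by range. Pathway genes have values where called at a mean of at least 100. The genes, lists and tests were chosen with earlier results of these data known. A library at 3 reads or fewer was at the floor. Counting intervals (95%, exact binomial on summed reads) and floors cover counting error only, since reads carry no molecular identifiers. Shared reads were estimated from exon overlap in GENCODE version 44, where all 40 genes lay on the same chromosome and strand. Promoters came from RefSeq.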

Additional observations from a re-analysis of the deposited data

How the results depend on the processing

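Of 599 single-gene values of the 40 genes in 15 alternative settings, 553 kept their direction and side of the threshold, 40 fell short of it and 6 turned, all 6 with TMM factors. The 33 higher and 7 lower calls stayed at 33 and 7 without trend, with a pseudocount of 0.1, with edgeR and with DESeq2. TMM gave 11 higher calls and a median of 0.22, and log2 fold changes of -0.12 for DDR1, -0.20 for EGFL7, -0.0181 for SEMA3A, -0.0052 for SEMA4G, -0.23 for SEMA6B and -0.0405 for SLIT2. These factors centre the listed genes themselves. The median was 1.51 over the genes with a mean of at least 10, where SLITRK2 was no longer tested. A pseudocount of 10 gave 31 higher and 4 lower calls and a median of 1.35, since it shrinks low genes, and testing against a minimum log2 change of 1 (treat) gave 22 higher and 4 lower calls. Leaving out each library in turn gave 33 higher calls each time, 6 to 7 lower calls and a median of 1.55 to 1.64. Over all listed genes, 2421 were called (1703 higher and 718 lower), against 1306 with TMM (585 and 721) and 1298 with treat (1034 and 264). Deviations of same-numbered libraries correlated at 0.07, 0.02 and 0.13, and those of other-numbered libraries at -0.10 to 0.07. Such weak values cannot settle whether the replicate numbers pair the samples. The fit with the replicate block gave 33 higher and 7 lower calls and a median of 1.56. Ratios of genes with few reads in T24 (UNC5A, EPHB3, ROBO2 and FGF18) are limited by depth, as their intervals show, and SLITRK2 has a lower bound only.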

Other observations

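A listed gene whose symbol matched the rule but whose type is antisense, EPHA1-AS1, was left out of the 40. It had 20.2, 12.3 and 15.5 scaled counts in T24 and no read in the 3 T24DDP libraries. As the strand setting of the counting is not stated, its reads and those of the opposite strand cannot be told apart.

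Deviation of T24DDP replicate 3 by more than 0.5 on the log2 scale from the mean of replicates 1 and 2 was seen in 13 of the 40 genes, 6 above and 7 below. PDGFA (1.03) and SEMA5A (1.02) lay highest above, and IGFBP3 (-0.97) and SEMA3B (-0.71) lowest below.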
